A study of Rattus norvegicus with 60 samples.

Results

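The amygdala of 7-day-old (P7) male rats was compared between HR and LR, which are lines kept by selective breeding. The comparison rests on 10 of the 60 samples of the series, 5 arrays of HR amygdala and 5 of LR amygdala, chosen by line, region and age in the array names. Tissue was dissected from thick frozen sections with the help of stained neighbouring sections, and labelled cDNA was hybridised to single-colour NimbleGen arrays. The other groups of the series are the amygdala of both lines at P14 and P21 and the prefrontal cortex of both lines at all of these ages, with 5 samples in each. All animals in both lines were on a Sprague-Dawley background, no treatment is given for any group, and the labels do not say whether samples were littermates. Line is the only difference that the sample labels give between the groups compared. The array numbers in the column headers also differ by line, so a difference cannot be assigned to breeding alone.

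HR and LR rats are bred for high and low locomotor response to an unfamiliar environment, and LR animals show the more anxious and passive behaviour as adults. The amygdala, which assigns emotional value to stimuli, is in its first postnatal weeks a tissue of growing axons and dendrites, with tubulin and actin as main building materials, and its glia and myelin are still maturing. Chaperones of the HSP70 and HSP90 families, with the chaperonin ring that folds newly made tubulin and actin, assist this output of protein.

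At P7 many more transcripts were lower than higher in HR, and the named genes with the largest differences include tubulins, an actin, chaperones, a hypothalamic neuropeptide precursor, a tetraspanin and a folate receptor of the choroid plexus. With limma (a linear model with moderated variances, fitted to log2 intensity), 1572 of 17519 transcript rows (8.97%) passed the threshold for a call, an adjusted p (Benjamini-Hochberg) under 0.05, and 3695 rows (21.1%) had an unadjusted p under 0.05. Of the 1572 called rows, 438 (2.5%) were higher and 1134 (6.47%) lower in HR. All differences below are log2 of HR over LR, given with the standard error (SE) of the fit and 5 arrays per line, so negative values are lower in HR. The lower calls had a median size of -0.88 and the higher ones of 0.76. A difference past 1 was seen in 395 lower and 64 higher rows, and one past 2 in 27 and 2. In 1502 rows (8.57%) the 5 HR and 5 LR values did not overlap, with HR below LR in 1033 (5.9%) and above in 469 (2.68%). Among the 3504 rows with the highest intensity 15.95% were lower and 6.91% higher, against 0.83% and 1.17% of the 3504 with the lowest.

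The number of calls changed with the scale, the arrays fitted and a score used as a covariate. After quantile normalization 636 rows were higher and 927 lower. With only the P7 arrays fitted 260 were higher and 798 lower. The sample codes in the column headers share stems, of which the 5 HR arrays carry 3 and the 5 LR arrays 4, and with arrays of 1 stem averaged 225 rows were higher and 786 lower. A score was taken along the first component of the variation within groups of the prefrontal arrays (29.4% of that variation), and the HR amygdala arrays scored from -16.6 to -8.57 and the LR arrays from 3.65 to 13.8. The mean difference was -22.6 (exact permutation test, two-sided, p = 0.00794, the smallest that 252 assignments allow, n = 5 per line). With that score as a covariate 173 rows were called, 59 higher and 114 lower, and its part in the results was not tested. The score comes from the amygdala values themselves and did not overlap between the lines at P7, nor at P14 or P21. Score and line therefore cannot be told apart, and counts with this covariate, here and below, are not an adjusted line difference. Array medians lay between 68.8 and 70.5. Correlations between arrays had a median of 0.948 within HR and 0.954 within LR, and of 0.935 between lines. The array numbers in the column headers run from 51 to 55 for HR and from 56 to 60 for LR, so array order and line cannot be told apart. A gene that was not called is not thereby shown to be equal in the lines. Among the called genes named below, HR and LR values overlapped in Uts2, Or10d5j, Ddx21-ps11, Shisal2b, Cct5, Hsp90b1, Mpc1, Mchr1, Htr1d, Mbp, Elavl3 and Ctss. The files carry no detection flags, and the size of a difference is uncertain where a line's mean lies below the median row of the table (64.4). Among the genes named below this holds in HR for Tspan18, Cct5, Hsp90aa1, Hsp90b1, Herpud1, Fh, Mpc1, Atp6v1c1, Ndrg2, Tnnt1 and Mchr1, and in LR for Mchr1, Uts2, Htr1d, Cenpl, RT1-M4, Or10d5j, Gprin1 and Shisal2b.

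**Figure D1:**
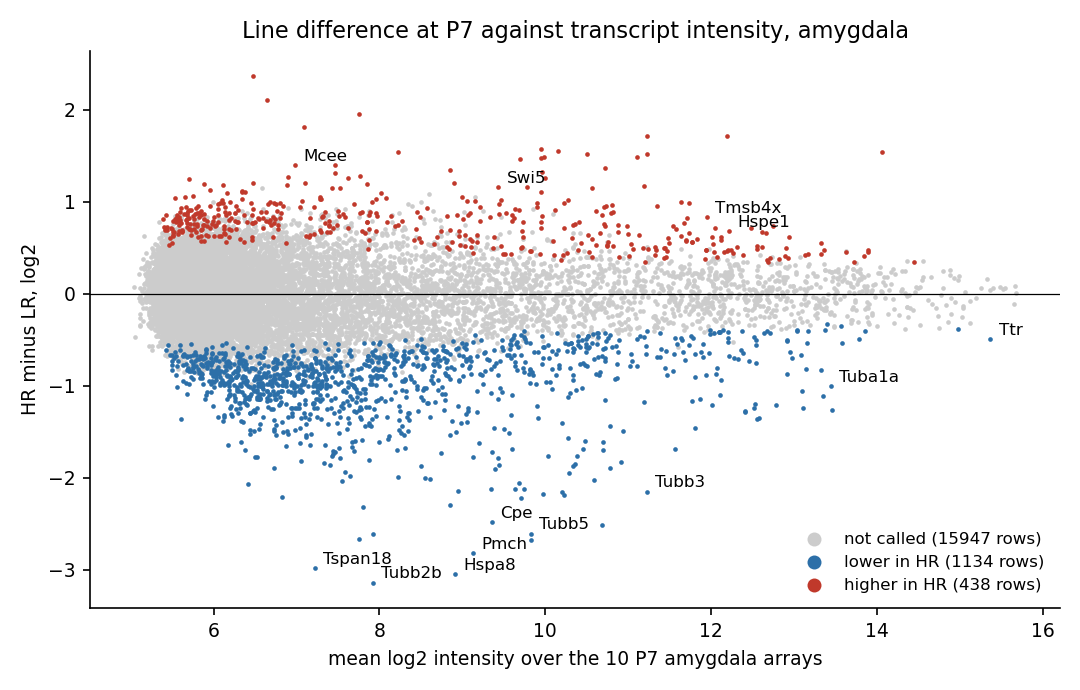
Each point is 1 transcript row, with its mean log2 intensity over the 10 P7 amygdala arrays on the x axis and HR minus LR (log2) on the y axis. Blue points are the 1134 rows called lower and red points the 438 called higher in HR; the lower calls reach beyond -3 (Tubb2b at -3.14), and unlabelled red points above 1.40 are rows without a settled gene name.

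Tubulins, which polymerise into microtubules, carried the largest difference of any named gene. All 7 measured beta-tubulin genes and 4 of 5 alpha-tubulin genes were lower in HR, with medians of -2.15 and -1.001, while over all 15643 named genes 6.67% were lower and 2.44% higher and the median was -0.01. Tubb2b read 74.1, 105, 66.8, 114 and 60.4 on the 5 HR arrays and 742, 739, 680.4, 663 and 776 on the 5 LR arrays. The lowest LR array was thus far above the highest HR array, and the difference was -3.14 ± 0.20 (SE, adjusted p = 3.52e-12). Tubb5 read 405, 336, 415, 348 and 339.7 in HR and 1965, 2387, 2196, 2768 and 1963 in LR, a difference of -2.61 ± 0.24 (SE, adjusted p = 3.32e-09) with no overlap. Tubb3, the neuron-specific beta-tubulin, read 871, 1062, 1226, 1215 and 1357 in HR and 4444, 4871, 4524, 6201 and 5320.2 in LR. Every LR array was again above every HR array, and the difference was -2.15 ± 0.19 (SE, adjusted p = 1.35e-09).

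Tubb2a differed by -2.17 ± 0.21, Tubb4a by -1.61 ± 0.23, Tubb4b by -0.88 ± 0.17 and Tubb6 by -0.62 ± 0.17, all without overlap. Tubb6 was not called without HR array 54 or LR array 59 (adjusted p = 0.0582 to 0.0633). Tuba1a, the main alpha-tubulin of growing neurons, read 8106, 8345, 7498, 7711 and 7788 in HR and 15759, 13805, 16114, 17394 and 16028 in LR, a difference of -1.001 ± 0.13 (SE, adjusted p = 1.31e-06) in which the groups stood well apart. Tuba1b differed by -1.21 ± 0.15, Tuba1c by -0.60 ± 0.14 and Tuba4a by -1.002 ± 0.28. Tuba4a was not called without HR array 55 or LR array 60 (adjusted p = 0.0532 to 0.0633). Tuba8 was not called, at -0.44 ± 0.19. Tubulins share long stretches of sequence, and whether the probes separate the genes was not tested.

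Other parts of the microtubule apparatus had a smaller share of calls than the alpha- and beta-tubulins. None of the 6 measured genes for gamma-tubulin and the tubulin folding cofactors was called (median 0.09). Of 10 genes for microtubule-associated proteins 3 were lower: Stmn4 at -1.78 ± 0.18 (second row -2.14), the tubulin-sequestering Stmn1 at -0.67 ± 0.15, and tau, Mapt, at -0.79 ± 0.18. Of 10 motor protein genes 1 was lower. In all, 15 of 38 microtubule genes were lower and 0 higher, and 7 were lower when the component score was a covariate, Tubb2b at -2.76 (adjusted p = 6.5e-05) and Tubb3 at -2.39 (adjusted p = 0.000211) among them.

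Both cytoplasmic actin genes were lower in HR too. Actg1, cytoplasmic gamma-actin, read 103, 71.3, 76.7, 93.6 and 88.0 in HR and 518, 384, 556, 639.9 and 687 in LR. The groups were far apart, at -2.67 ± 0.22 (SE, adjusted p = 3.59e-10), and a second row of the gene differed by -1.9999. Actb differed by -1.51 ± 0.20, and Arpc2, a subunit of the complex that branches actin filaments, by -0.70 ± 0.14 in the row with the highest intensity, while a second row at -0.51 was not called. Cdc42, a GTPase that directs actin assembly, differed by -0.75 ± 0.13. Tmsb4x, whose product thymosin beta-4 binds actin monomers, was higher in HR: it read 4685, 5552, 5004, 5374 and 5851 in HR and 2650.1, 3407, 2759, 3053 and 3010.4 in LR, a difference of 0.83 ± 0.12 (SE, adjusted p = 9.52e-06) without overlap. Of the 15 actin genes measured 4 were lower and 1 higher.

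**Figure D2:**
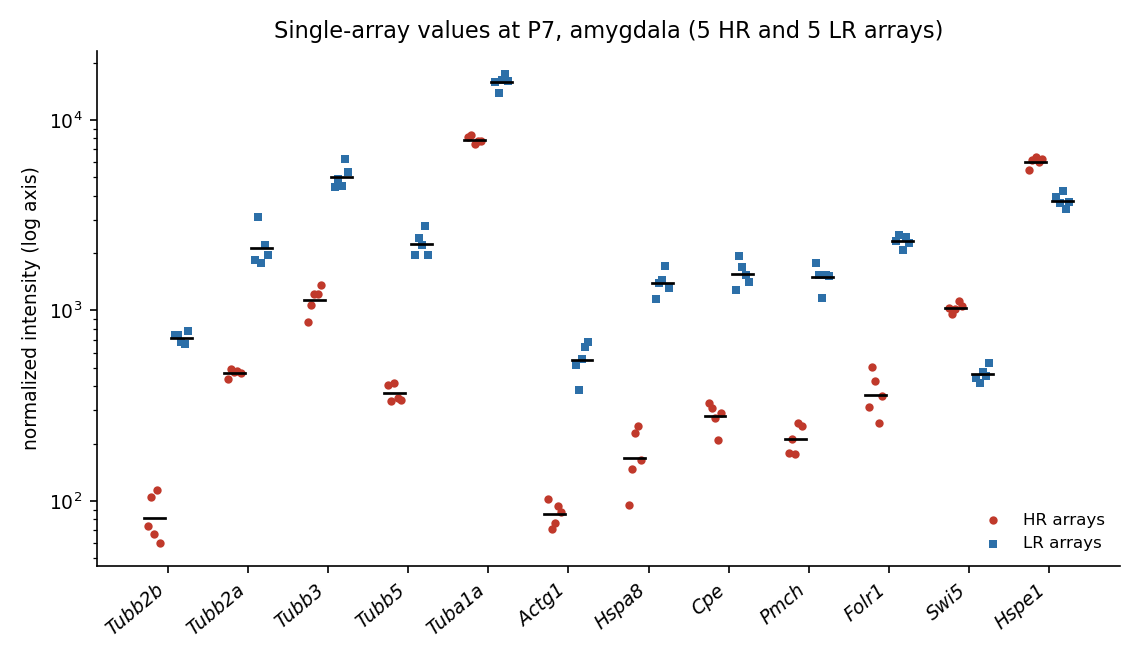
Normalized intensity (log axis) of 12 genes on each P7 amygdala array, HR as red circles and LR as blue squares, with a black bar at the geometric mean of 5 arrays. HR and LR do not overlap in any of the 12 genes; Swi5 and Hspe1 are higher in HR and the other 10 lower.

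Of the 51 measured chaperone genes 17 were lower in HR (33.3%), 1 was higher and 33 were not called. Over all named genes 6.67% were lower and 2.44% higher, and list counts here and below are to be read beside these shares. Calls were more frequent in bright rows, with 15.95% lower among the 3504 rows with the highest intensity. No list share was adjusted for intensity. Hspa8, the constitutive HSP70, read 95.7, 147, 228, 247 and 165 in HR and 1142, 1385, 1439, 1714 and 1308 in LR, so the lowest LR array was several times the highest HR array. The difference was -3.05 ± 0.22 (SE, adjusted p = 3.24e-11). Hspa5, the HSP70 of the endoplasmic reticulum, read 119, 81.3, 118, 44.7 and 108 in HR and 186, 562, 258, 366 and 358 in LR, which also did not overlap (-1.87 ± 0.26 (SE, adjusted p = 5.7e-06)). The other 8 HSP70 genes were not called, and the stress-induced Hspa1a and Hspa1b differed by -0.79 and -0.17. None of the 4 small heat shock protein genes was called.

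Among cofactors of HSP70 and HSP90, Ahsa1, which activates the HSP90 ATPase, read 408, 380.1, 348, 330.1 and 483 in HR and 1709, 2020.1, 2089.8, 1557 and 1687 in LR. No HR array came near the LR range (-2.22 ± 0.16 (SE, adjusted p = 3.24e-11); second row -2.13). The list for the HSP90 family counts the cofactor gene Ahsa1 as a member, and 5 of its 6 measured genes were lower. They included the cytosolic Hsp90ab1 at -0.80 ± 0.15, Hsp90aa1 at -0.69 ± 0.17 and Hsp90b1 of the endoplasmic reticulum at -1.07 ± 0.21. Dnaja1, an HSP40 that passes substrates to HSP70, differed by -1.60 ± 0.24, the adaptor gene St13 by -1.72 ± 0.27 and the ubiquitin ligase gene Stub1 by -0.97 ± 0.16.

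Of the 8 chaperonin genes 4 were lower, among them the ring subunits Cct3 at -1.57 ± 0.21, Cct7 at -1.30 ± 0.19 and Cct5 at -1.09 ± 0.27. The exception was Hspe1, the mitochondrial co-chaperonin, which read 5482, 6148, 6394, 5986 and 6235 in HR and 3919, 3663, 4215, 3401 and 3719.6 in LR. It was higher in HR by 0.68 ± 0.12 (SE, adjusted p = 0.000346) without overlap. In the endoplasmic reticulum, the disulfide isomerase gene Pdia6 differed by -1.31 ± 0.25 and Herpud1, of the degradation pathway, by -1.13 ± 0.29. The median over the 51 chaperone genes was -0.39. With the component score as a covariate 3 were lower, Hspa8 at -2.94 (adjusted p = 0.000119) among them.

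Promoter windows of the tubulin and HSP70 genes among the largest differences, and of the peptide gene Uts2 described below, are shown to give the sequence in which these genes start. They are taken from RefSeq (build GRCr8), cover 250 bases before to 50 after the annotated start (300 in all), and run 5′ to 3′ along the gene. Capitals mark matches on either strand to GAANNTTC, the core of a heat shock element, to CCAAT, a common promoter box, or to TATAAA.
Tubb2b (chr17:30952836-30953135, plus strand): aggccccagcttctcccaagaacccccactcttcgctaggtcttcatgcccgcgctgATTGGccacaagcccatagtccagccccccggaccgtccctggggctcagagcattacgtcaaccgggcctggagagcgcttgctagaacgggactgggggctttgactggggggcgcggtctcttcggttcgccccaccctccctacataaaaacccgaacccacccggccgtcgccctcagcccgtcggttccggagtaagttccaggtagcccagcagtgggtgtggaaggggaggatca
Tubb5 (chr20:2917327-2917626, plus strand): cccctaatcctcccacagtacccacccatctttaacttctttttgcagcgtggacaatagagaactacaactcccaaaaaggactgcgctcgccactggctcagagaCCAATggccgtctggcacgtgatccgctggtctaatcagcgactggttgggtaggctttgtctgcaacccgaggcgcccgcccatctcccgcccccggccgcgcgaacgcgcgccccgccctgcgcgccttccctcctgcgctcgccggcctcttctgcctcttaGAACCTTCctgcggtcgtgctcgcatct
Hspa8 (chr8:50080264-50080563, plus strand): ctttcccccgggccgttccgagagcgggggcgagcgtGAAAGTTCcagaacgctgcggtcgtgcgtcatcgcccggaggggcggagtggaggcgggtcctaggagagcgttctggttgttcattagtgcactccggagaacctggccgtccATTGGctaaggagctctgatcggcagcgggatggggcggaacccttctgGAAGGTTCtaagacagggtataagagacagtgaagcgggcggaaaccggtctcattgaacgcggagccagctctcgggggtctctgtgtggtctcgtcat
Uts2 (chr5:166733421-166733720, plus strand): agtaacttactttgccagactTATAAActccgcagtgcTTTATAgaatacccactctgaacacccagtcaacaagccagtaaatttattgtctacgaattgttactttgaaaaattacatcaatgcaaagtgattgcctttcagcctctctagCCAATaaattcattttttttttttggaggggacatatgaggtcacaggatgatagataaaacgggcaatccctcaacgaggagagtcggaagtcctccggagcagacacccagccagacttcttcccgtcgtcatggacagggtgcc
Hspa8 held 2 matches to the heat shock core and 1 CCAAT box, Tubb5 held 1 of each, Tubb2b held 1 CCAAT box, and Uts2 held 2 TATAAA matches and 1 CCAAT box. Over 33469 promoter windows 8.59% held the heat shock core, 37.5% a CCAAT box and 14.2% a TATAAA match. The heat shock core was found in 14 of 51 chaperone promoters (27.5%), 2 of 12 alpha- and beta-tubulin promoters (16.7%) and 0 of 32 neuropeptide promoters. In the same order a CCAAT box was found in 29 (56.9%), 8 (66.7%) and 7 (21.9%), and a TATAAA match in 4 (7.84%), 2 (16.7%) and 10 (31.2%). The lists take 1 window per gene, while the 33469 windows were not reduced in this way. These matches describe the letters in the window, and no factor's binding was measured.

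Of 23 measured genes of glycolysis, the breakdown of sugar, 11 were lower in HR, 12 were not called and 0 were higher (median -0.46). Gapdh read 4032, 4040.2, 4113, 3648 and 3614 in HR and 7787, 8446, 9920.4, 10358 and 8466 in LR, with every LR array well above the HR range (-1.203 ± 0.14 (SE, adjusted p = 3.63e-07)). A row named Gapdhl10, a Gapdh-like locus whose probes may not separate it from Gapdh, differed by -2.13 ± 0.18. Ldha, which makes lactate, read 109, 120.1, 119, 137 and 145 in HR and 316, 695, 405, 279.7 and 646 in LR. The LR values were scattered but all above HR (-1.81 ± 0.22 (SE, adjusted p = 5.57e-07)). Aldoa differed by -0.94 ± 0.14, Pgk1 by -0.94 ± 0.16, the neuronal enolase gene Eno2 by -1.17 ± 0.18 and the phosphofructokinase gene Pfkm by -1.03 ± 0.21. By step, 5 of 7 genes from phosphofructokinase to the triose phosphates and 4 of 5 of the later ATP-yielding steps were lower, against 1 of 5 for glucose uptake and 1 of 6 for lactate and pyruvate.

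All 19 measured genes of the tricarboxylic acid cycle, which oxidises the products of glycolysis in mitochondria, had differences below 0, and 9 of them were lower (median -0.59). Suclg1 differed by -1.39 ± 0.21, Idh3b by -1.13 ± 0.22, Idh2 by -1.10 ± 0.22, Fh by -1.07 ± 0.19 and Mdh2 by -0.88 ± 0.13. In the respiratory chain and ATP synthase the 48 genes were divided, with 8 higher, 7 lower and a median of 0.01. Under quantile normalization 11 were higher and 5 lower. The lower genes included the catalytic core of the ATP synthase: Atp5f1b read 636, 701, 944, 672 and 716 in HR and 2333, 2554, 2318, 2409 and 2778 in LR, with no overlap (-1.77 ± 0.15 (SE, adjusted p = 4.94e-10)). Atp5f1a differed by -1.86 ± 0.19, Atp5pb by -0.88 ± 0.13 and the complex I gene Ndufv2 by -1.07 ± 0.18. Small subunits were among the higher genes: Uqcrb of complex III at 0.77 ± 0.12, Ndufa5 of complex I at 0.61 ± 0.14 and Cox5a of cytochrome oxidase at 0.46 ± 0.11.

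Of 24 genes for mitochondrial channels, carriers and dynamics 10 were lower and 0 higher. Vdac3, an outer membrane channel, read 483, 698, 597, 747 and 679 in HR and 2659, 2559.9, 2185, 2293 and 2584 in LR, a separation with no overlap (-1.95 ± 0.14 (SE, adjusted p = 3.28e-11)). Nipsnap1 differed by -1.67 ± 0.19, the import pore gene Tomm40 by -1.09 ± 0.21 and the pyruvate carrier gene Mpc1 by -1.14 ± 0.23. With the component score as a covariate 1 glycolysis gene, 0 genes of the tricarboxylic acid cycle and 2 channel and carrier genes were lower, and 3 genes of oxidative phosphorylation were lower and 0 higher.

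Genes for making and removing protein had calls in both directions. Of 58 cytosolic ribosomal protein genes 9 were lower (15.5%) and 2 higher (3.45%), with a median of -0.01. Among the 3504 rows with the highest intensity 15.95% were lower and 6.91% higher. Rpsa, a small-subunit protein, differed by -0.87 ± 0.12. Of 26 mitochondrial ribosomal genes 3 were lower (11.5%) and 2 higher (7.69%). Mrpl43 read 499, 573, 529, 664 and 549 in HR and 2209.5, 2674, 2652, 2416 and 2821 in LR and had the smallest p of all rows (-2.18 ± 0.13 (SE, adjusted p = 2.93e-12)), with lines far apart. Mrps30 differed by -1.23 ± 0.27 and Mrpl3 by -1.03 ± 0.18, while Mrpl13 was higher at 0.71 ± 0.18. Of 35 proteasome and ubiquitin genes 5 were lower (14.3%) and 1 higher (2.86%). The lower ones included the regulatory subunits Psmc4 at -1.01 ± 0.17 and Psmd14 at -0.95 ± 0.20.

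**Figure D3:**
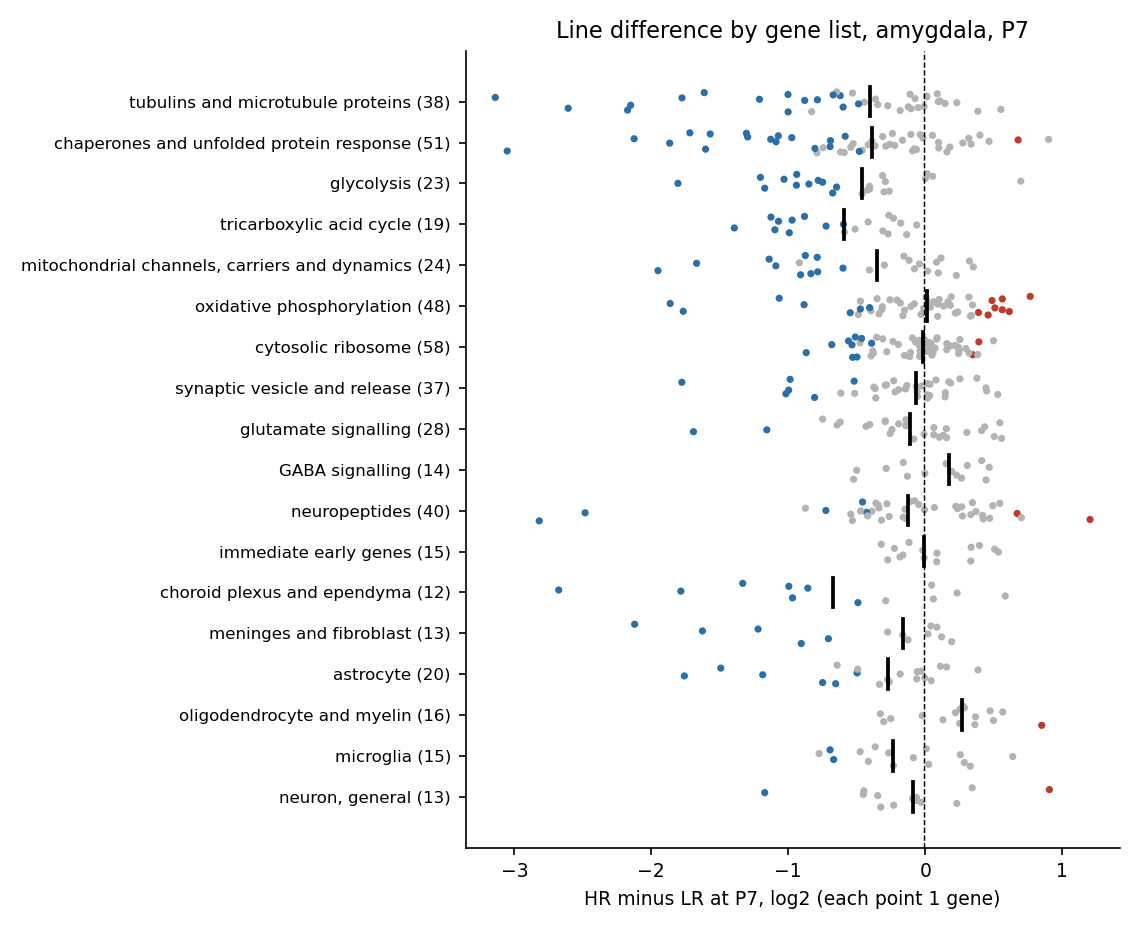
HR minus LR (log2, x axis) for each measured gene of 18 gene lists, with the number of genes in brackets. Blue points were called lower and red points higher in HR, grey points were not called, black bars are list medians and the dashed line is the median of all rows (-0.01); the tricarboxylic acid cycle has every gene below 0, and oxidative phosphorylation has calls on both sides.

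Neuropeptide genes showed single large differences rather than a shift of the list. Of its 40 genes 5 were lower (12.5%) and 2 higher (5%), with a median of -0.12. Pmch, the gene of the melanin-concentrating hormone precursor, a feeding and arousal peptide made in the lateral hypothalamus and zona incerta, read 179, 211, 176, 257 and 246 in HR and 1777, 1529, 1161, 1534 and 1517 in LR. Its HR arrays lay far below all LR arrays (-2.82 ± 0.21 (SE, adjusted p = 3.59e-11)). The gene for the peptide's receptor, Mchr1, was higher at 0.55 ± 0.17. Its means were 54.5 in HR and 37.3 in LR. Mchr1 was not called without any 1 of arrays 51, 53, 54, 56, 57, 58 or 60 (0.44 to 0.57, adjusted p = 0.0524 to 0.128). Other hypothalamic peptide genes were not called: Hcrt, the orexin precursor, differed by -0.88, Avp by 0.27, Oxt by 0.54 and Pomc by -0.54. Of 12 measured hypothalamus markers 1 was lower (Pmch) and 1 higher (Gal). Their summed intensity was 3397 to 3933 in HR and 3703 to 4434 in LR. That sum includes Pmch and Gal, whose differences have opposite signs, so it does not measure how much hypothalamic tissue was dissected. The part of this tissue in the Pmch result was not tested.

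Among peptides of amygdala neurons the calls went both ways. Penk, the enkephalin precursor of intercalated and central amygdala neurons, read 4038, 3827, 4488, 4028 and 5639 in HR and 6486, 7982, 6353, 7458 and 7936 in LR, without overlap (-0.73 ± 0.15 (SE, adjusted p = 0.0013)). Gal, which encodes galanin, read 2648, 2552, 2162, 2126 and 2459 in HR and 1256, 1686, 1442, 1417 and 1723 in LR. It was higher on every HR array (0.67 ± 0.13 (SE, adjusted p = 0.000824)). Sst, which encodes somatostatin, differed by -0.43 ± 0.13, and was not called without any 1 of arrays 51, 52, 53, 57 or 60 (-0.41 to -0.39, adjusted p = 0.0611 to 0.0752). Uts2, the urotensin 2 precursor gene, read 118, 108, 141, 121 and 209 in HR and 58.4, 45.7, 40.5, 117 and 55.7 in LR. LR array 59 lay within the HR range, and the difference (1.203 ± 0.33 (SE, adjusted p = 0.0164)) was not called without array 55 or 58 (1.05 and 1.07, adjusted p = 0.0542 to 0.0565). With the component score as a covariate Uts2 stood at 0.12 (adjusted p = 0.971).

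The bright peptide genes Npy and Cck, of inhibitory neurons, were not called, at -0.05 and -0.32. Cpe, the carboxypeptidase that trims peptide precursors, read 326, 307, 271, 209.5 and 291 in HR and 1288, 1935, 1682, 1528 and 1413 in LR, with no overlap (-2.48 ± 0.20 (SE, adjusted p = 3.59e-10)). A second row of Cpe differed by -0.31 and was not called, so the rows of this gene disagree. The convertase genes Pcsk1 and Pcsk2 differed by -0.01 and 0.70 and were not called. Of 19 neuropeptide receptor genes Mchr1 was the only one called.

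Genes of synaptic signalling were mostly not called. Of 28 glutamate genes 2 were lower (7.14%), near the 6.67% of all named genes. They were the kinase gene Camk2b and Cacng2, an AMPA receptor auxiliary subunit (-1.16 ± 0.28). None of the AMPA, kainate, NMDA or metabotropic receptor genes was called. Camk2b read 1680.0, 1604, 2035, 1709 and 1455 in HR and 5181, 5359.7, 5523, 6372 and 4912 in LR in its brightest row. That row did not overlap (-1.69 ± 0.17 (SE, adjusted p = 1.11e-08)), but 2 other rows differed by 0.12 and -0.43 and were not called. None of 14 GABA genes was called, with 4 at an unadjusted p under 0.05. None of 15 immediate early genes was called, with 1 at an unadjusted p under 0.05. Of 37 genes for synaptic vesicles and release 6 were lower (16.2%). Of these, 3 encode subunits of the proton pump that fills vesicles, such as Atp6v1c1 at -1.78 ± 0.25 and Atp6v1d at -0.997 ± 0.23. Ap2m1, a clathrin adaptor subunit, differed by -1.02 ± 0.18.

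Among 19 monoamine genes the serotonin receptor gene Htr1d was higher (0.78 ± 0.23). It was not called without any 1 of arrays 51, 53, 54, 56 or 57 (0.70 to 0.77, adjusted p = 0.0508 to 0.078). Among 23 genes of the glucocorticoid and stress axis none for a releasing hormone, its receptors or a corticosteroid receptor was called. The growth-factor-induced Vgf was higher (0.83 ± 0.24), and was not called without any 1 of arrays 51, 52, 53 or 60 (0.75 to 0.80, adjusted p = 0.0514 to 0.0687).

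Among lists for chromatin, growth and timing the share lower in HR ran from 8.33% to 16.7%, against 6.67% of all named genes and 15.95% of the 3504 rows with the highest intensity. Of 24 proliferation genes 4 were lower (16.7%) and 1 higher. Of 27 chromatin enzyme genes 4 were lower (14.8%) and 0 higher. Hdac5, a histone deacetylase that shuttles out of the nucleus with activity, read 982, 825, 869, 839 and 839.7 in HR and 1572, 2323, 1688, 1891 and 1793 in LR. The ranges were well separated (-1.08 ± 0.14 (SE, adjusted p = 1.31e-06)). Hdac4 differed by -0.92 ± 0.19, Hdac2 by -0.80 ± 0.19 and the methyl-CpG binding domain gene Mbd3 by -1.34 ± 0.25. The progenitor genes Sox2, at 1343, 1096, 1159.8, 1112 and 1188 in HR and 2708, 3235, 3314, 3453 and 3885 in LR, and Vim, at -1.73 ± 0.20, were lower without overlap (Sox2 -1.49 ± 0.19 (SE, adjusted p = 1.67e-06)). Gap43, a protein of growing axons, differed by -0.82 ± 0.17, and was with Elavl3 (-0.84 ± 0.24) 1 of 2 lower among 17 axon growth and immature neuron genes. Elavl3 was not called without any 1 of arrays 54, 55, 57 or 60 (-0.79 to -0.74, adjusted p = 0.05004 to 0.0673). Of 12 circadian genes 1 was lower (8.33%), Nfil3, a repressor of clock output, at -0.72 ± 0.18.

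Some markers of cells and tissues next to the amygdala also differed. In whole tissue fewer cells of a type and less RNA per cell cannot be told apart. Of 12 choroid plexus and ependyma markers 7 were lower and 0 higher (median -0.67), and 4 had differences above 0. Their summed intensity, most of it from Ttr, was 32895 to 40032 in HR and 49521 to 62489 in LR. Folr1, the folate receptor of the choroid plexus, read 311, 507, 427, 256 and 354 in HR and 2310.1, 2484, 2068, 2434 and 2252 in LR, a wide gap (-2.68 ± 0.20 (SE, adjusted p = 8.56e-11)). Ttr, the most abundant of that epithelium's transcripts, read 36451, 37106, 31467, 35287 and 38714 in HR and 55575, 47171, 45616, 45606 and 58494 in LR. It was lower on every HR array, but by less (-0.49 ± 0.14 (SE, adjusted p = 0.0174)), and was not called without array 53 or 60 (-0.45 and -0.44, adjusted p = 0.0525 to 0.0605). The cilium and ependyma genes Prr32 and Cfap126 differed by -1.78 ± 0.20 and -1.33 ± 0.21. Kl, Aqp1, Foxj1 and Tmem212 had means below the median row in both lines and were not called.

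Of 13 meninges and fibroblast markers 5 were lower and 0 higher, while 5 had differences above 0 and the median was -0.16. Their summed intensity was 1933 to 2321 in HR and 4353 to 5044 in LR. Ptgds, the prostaglandin D synthase of the meninges and of myelinating glia, read 359, 394, 259, 273 and 292 in HR and 1354, 1294, 1259, 1539 and 1343 in LR, with no overlap (-2.12 ± 0.20 (SE, adjusted p = 8.88e-09)). The collagen gene Col1a2 differed by -1.63 ± 0.19 and Igfbp2 by -1.22 ± 0.19. Of 20 astrocyte markers 6 were lower and 0 higher (summed intensity 18562 to 20591 in HR and 22841 to 27240 in LR), including Sparcl1 at -1.76 ± 0.17, Ndrg2 at -1.49 ± 0.24 and S100b at -1.19 ± 0.15. Of 8 thalamus markers 3 were lower, Tnnt1 at -1.65 ± 0.20 and Calb2 at -1.34 ± 0.20 among them. The thalamus list was split, with 4 differences below 0, 4 above 0 and a median of -0.13. With the component score as a covariate 2 choroid plexus, 1 meninges, 1 astrocyte and 0 thalamus markers were lower. The part of these cells in the other differences was not tested.

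The remaining cell types had 1 or 2 calls each. Of 9 endothelial and mural markers 1 was lower, the tight junction gene Cldn5 (-2.01 ± 0.24), while 6 had differences above 0 (median 0.07). Of 10 blood cell markers 1 was lower, the globin gene Hba-a3 (-1.28 ± 0.28). The blood cell markers had a summed intensity of 61244 to 67259 in HR and 74683 to 83194 in LR, which did not overlap. The microglia markers C1qc (-0.67 ± 0.19) and Ctss (-0.69 ± 0.16) were the 2 lower of 15, and C1qc was not called without any 1 of arrays 52, 57 or 60 (-0.65 to -0.48, adjusted p = 0.0525 to 0.109). Cspg5 (-0.71 ± 0.14) was the 1 lower of 6 oligodendrocyte precursor markers. Of 16 oligodendrocyte and myelin markers 1 was higher, Mbp, a myelin protein gene, at 0.85 ± 0.24. Its 4 other rows were not called, and the called row was lost without any 1 of arrays 52, 53, 56 or 60 (0.69 to 0.80, adjusted p = 0.0561 to 0.0924). General neuron markers had a summed intensity of 30255 to 32323 in HR and 29006 to 31726 in LR, ranges that overlapped.

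Markers of the amygdala and neighbouring pallium were present in both lines. Of 15 measured, 2 were lower (Lmo4, and the kinase gene Prkcd at -0.67) and 0 higher, and the dissected tissue carried Lmo3 at 509 in HR and 583 in LR and Fezf2 at 279 and 258. The 15 markers had a summed intensity of 2201 to 2637 in HR and 2729 to 3507 in LR, without overlap, and 10 of them had differences below 0. Lmo4, a transcription cofactor of the developing forebrain, read 227, 168, 59.6, 194 and 230.0 in HR and 306, 354, 397, 418 and 433 in LR, and HR array 53 lay far below the other HR arrays (-1.25 ± 0.24 (SE, adjusted p = 0.000646)). Lhx6, Emx2 and Cyp26b1 had means below the median row in both lines and were not called.

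Among the remaining named genes with the largest differences, Tspan18, a membrane tetraspanin, was below the median row on all HR arrays (58.3, 60.5, 51.7, 47.2 and 49.1) and at 474, 292, 476, 484 and 404 in LR (-2.98 ± 0.28 (SE, adjusted p = 5.9e-09)). Gde1, a glycerophosphodiester phosphodiesterase gene, differed by -2.30 ± 0.22 and Haus8l2 by -2.51 ± 0.19. Swi5, a DNA repair gene, had the smallest error among the 12 named genes with the largest differences above 0: it read 1031, 956, 1020.3, 1119 and 1052 in HR and 441, 418, 476, 454 and 531 in LR, and the ranges were far apart (1.16 ± 0.12 (SE, adjusted p = 7e-08)). Mcee, an enzyme of propionate breakdown in mitochondria, read 339.5, 229.7, 167, 123 and 229.6 in HR and 82.6, 111, 72.9, 77.7 and 55.6 in LR, just without overlap (1.40 ± 0.22 (SE, adjusted p = 5.7e-05)). Pax5, a transcription factor gene of the midbrain border and B cells, differed by 1.40 ± 0.36 and the keratin-associated Krtap1-5 by 1.10 ± 0.18, both without overlap.

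The other higher genes were dimmer or less certain. Cenpl differed by 1.198 ± 0.26, RT1-M4 of the major histocompatibility complex by 1.18 ± 0.21, Or10d5j by 1.25 ± 0.28, Gprin1 by 1.11 ± 0.28 (second row 0.20, not called) and Shisal2b by 1.11 ± 0.24 (second row 0.65, not called). In Or10d5j, Shisal2b and Ddx21-ps11 the lines overlapped. Ddx21-ps11, a pseudogene that the probes may not tell from its parent gene, differed by 1.18 ± 0.29. Pimreg, a mitosis gene, differed by 1.16 ± 0.36 and was called without array 53 or 56 but not without any 1 of the other 8 arrays (1.09 to 1.18, adjusted p = 0.0568 to 0.0836). Of 312 olfactory receptor genes 7 were higher (2.24%) and 0 lower. The higher share was near the 2.44% of all named genes, and 212 of the 312 had means below the median row in both lines.

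The difference at P7 was then tested against that at the later ages, as the P7 difference minus the mean of those at P14 and P21. With limma 987 rows (5.63%) were called, 297 (1.7%) with the P7 difference above and 690 (3.94%) below the later ones. Quantile normalization gave 396 and 583 and centring of each array gave 393 and 599. Tubb2b differed by -0.54 at P14 and -0.29 at P21, neither called, so that P7 lay below the later ages by -2.72 ± 0.24 (adjusted p = 7.23e-09). Its mean over the P7, P14 and P21 arrays of LR was 719, 48.1 and 47.5, and in HR 81.6, 33.2 and 38.7. The line difference thus sat at the age when LR was high. Of the 7 beta-tubulin genes 6 had a P7 difference below the later ones, as had 2 of 5 alpha-tubulin genes, against 3.9% of all named genes.

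Hspa8 followed the same order, with a P7 difference below later ages by -2.61 ± 0.27 (adjusted p = 1.06e-07), as did Actg1 (-2.50 ± 0.27 (adjusted p = 1.98e-07)), Cpe (-2.30 ± 0.25 (adjusted p = 2.38e-07)) and Gde1 (-1.98 ± 0.27 (adjusted p = 1.03e-05)). At P14 the Actg1 means were also below the median row, at 46.2 in HR and 52.7 in LR. In Swi5 the sign was opposite (1.21 ± 0.15 (adjusted p = 4.05e-06)). In order of age its LR mean was 463, 1149 and 1158, while the HR mean was 1034, 1072 and 1165. Mcee (1.38 ± 0.28 (adjusted p = 0.00171)), Tmsb4x (0.81 ± 0.14 (adjusted p = 0.000554)), Hspe1 (0.81 ± 0.15 (adjusted p = 0.000948)) and Uqcrb (0.83 ± 0.15 (adjusted p = 0.0004)) also lay above their later differences. In lists, 11 of 51 chaperone genes, 6 of 23 glycolysis genes and 6 of 24 mitochondrial channel and carrier genes were below the later ages.

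Other genes kept a line difference at all ages. Pmch was lower in HR at P14 by -1.07 ± 0.21 (adjusted p = 0.00139) and at P21 by -3.08 ± 0.21 (adjusted p = 3.01e-11), and its P7 value was not called against the later ones (-0.74 ± 0.25 (adjusted p = 0.0837)). In order of age its HR mean was 211, 192 and 78.0, against 1489.9, 404 and 661 in LR. Sox2 was lower by -1.45 ± 0.19 (adjusted p = 8.99e-06) at P14 and -1.97 ± 0.19 (adjusted p = 1.6e-08) at P21, S100b by -1.39 ± 0.15 (adjusted p = 4.05e-07) and -1.26 ± 0.15 (adjusted p = 7.61e-07), and Nipsnap1 by -1.36 ± 0.19 (adjusted p = 1.78e-05) and -2.32 ± 0.19 (adjusted p = 5.5e-10). Gal was higher by 0.74 ± 0.13 (adjusted p = 0.000596) and 0.61 ± 0.13 (adjusted p = 0.00215). The P7 value differed from the later ones by 0.22 in Sox2, 0.14 in S100b, 0.17 in Nipsnap1 and -0.01 in Gal, none of them called. Folr1 was lower at both later ages (-2.49 and -0.90) and its P7 value lay below their mean (-0.98 ± 0.25 (adjusted p = 0.0149)).

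**Figure D4:**
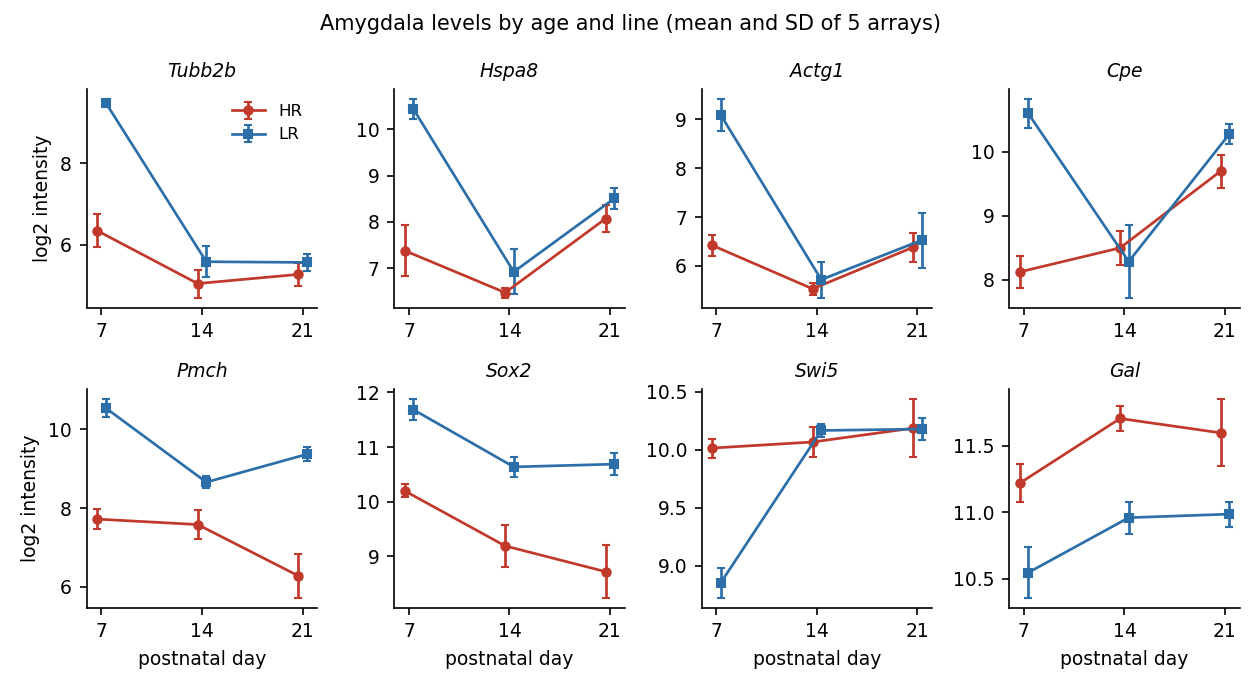
Mean log2 intensity in the amygdala with the SD of 5 arrays, at P7, P14 and P21, for HR (red circles) and LR (blue squares); each panel has its own y axis. Tubb2b, Hspa8, Actg1 and Cpe are far apart at P7 and close at P14, where the Tubb2b and Actg1 means lie below the median row. Swi5 is higher in HR at P7 only among the ages shown, and Pmch, Sox2 and Gal keep their order at each age.

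In the prefrontal cortex at P7, measured in 5 HR and 5 LR samples on a table normalized separately, limma called 0 of 18564 rows, with 896 (4.83%) at an unadjusted p under 0.05. With blocks of 12 consecutive array numbers in the fit 2 rows were called. Tubb2b differed there by 0.36 ± 0.63 (unadjusted p = 0.574, adjusted p = 0.997), Hspa8 by 0.21 ± 0.72 (unadjusted p = 0.772, adjusted p = 0.997) and Pmch by -0.51 ± 0.34 (unadjusted p = 0.143, adjusted p = 0.99). The SEs of Tubb2b and Hspa8 were 0.63 and 0.72, against 0.20 and 0.22 in the amygdala, so moderate differences in them were not detectable. Mrpl43 differed by -1.60 ± 0.53 (unadjusted p = 0.00506, adjusted p = 0.932) and Nipsnap1 by -1.34 ± 0.51 (unadjusted p = 0.0132, adjusted p = 0.932), in the same direction as in the amygdala. Neither was called, and neither was set in advance to be named here. An unadjusted p under 0.05 was found in 4.83% of all rows, so no shared difference can be read from them. Whether the difference itself differed between regions was not tested, since the tables were normalized apart.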

How the data were processed

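The amygdala and the prefrontal cortex tables were deposited by the authors as normalized intensity on a linear scale, processed with RMA per the submitters' processing notes, with no version given. RMA brings arrays to a common scale after background correction and joins probes of a transcript, so differences are relative to each array's overall signal. Without 1046 blank lines the amygdala table has 17519 rows, with 13441 rows named through a RefSeq table (GRCr8, names only) and 3267 by the file. The value tables of the series matrix held the same values.

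From these, log2 was taken of every deposited intensity. Group means (6 groups of line by age) were estimated in limma (version 3.58.1 under R 4.3.3) over the 30 amygdala arrays. HR minus LR was taken at P7, and the P7 difference minus the mean of P14 and P21. Prefrontal arrays were fitted alone. A call is a Benjamini-Hochberg adjusted p under 0.05 over all rows. Where a gene had several rows, lists used the row with the highest mean. The named genes were the 12 with the largest difference in each direction at P7 with a settled symbol, called members of each list by smallest p, all tubulins, and the 8 smallest p against later ages. Members and lists were chosen with earlier results of these data known. The alternatives were other normalizations, filters, variance models, blocks, arrays left out and the component score. A further pair was chosen after seeing the data, both on the stem of the sample code, whose meaning the sources used here do not give. Recovery of known changes was tested on simulated data. The block on array numbers joins 12 consecutive numbers, which no source names as a slide or batch. P-values reflect only how far these samples spread, which may be technical, and the number of arrays limits the precision.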

Additional observations from a re-analysis of the deposited data

Results flagged for a closer look

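An array stood apart from the other 4 of its line by Dixon's test in 13 of 242 groups of P7 values. Chance gives about 1 in 20. In HR the lowest array stood apart in Haus8l2 (394.6, next 719.7), Shisal2b (71.3, next 125), Stmn4 (249.98, next 309.8), Idh2 (76.5, next 109.5), Col1a2 (242, next 338) and Lmo4 (59.6, next 168). In LR the lowest array stood apart in Tuba8 (380.1, next 489), Nipsnap1 (298, next 368) and Hdac4 (158, next 219). In LR the highest array stood apart in Gde1 (1261, next 991), Pimreg (951, next 565), Mchr1 (48.05, next 35.9) and Prr32 (438, next 333).

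The line difference at P7 differed from that at the later ages, with the smallest p-values in Tubb2b (-2.72), a second row of Ahsa1 (-1.83), Hspa8 (-2.61), Actg1 (-2.50), Cpe (-2.30), Tubb3 (-1.98), Haus8l2 (-2.02) and Gapdhl10 (-1.84). Each value is the P7 difference minus the mean of the P14 and P21 differences on the log2 scale, from limma with 5 arrays per group.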

How the results depend on the processing

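For HR minus LR at P7 the count of calls was 1058 with only the P7 arrays fitted, 1499 with array weights, 1755 with blocks of 12 consecutive array numbers and 1784 with a trended and robust prior. It was 173 with the component score as a covariate and 1011 with arrays of 1 code stem averaged, where fewer arrays enter, and 1282 to 1424 with 1 array left out. The difference against later ages gave 593 calls with stems averaged, 1011 with the component score as a covariate and 863 to 1035 with 1 array left out. The prefrontal count was 2 with blocks of array numbers and 0 with any 1 array left out. The cause of the change with the component score and with blocks of array numbers was not tested. Replicate numbers, which only the series matrix carries, did not pair the samples (correlations of deviations from -0.011 to 0.017). With the number as a block, in a paired fit, 1467 rows were called at P7 and 924 against later ages.

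Of 121 named genes 38 kept their side of the threshold with the component score as a covariate, 82 did not and Hba-a3 changed sign (0.15, adjusted p = 0.951). Of those 82, 19 had a log2 difference at least as large as without the score (Herpud1 at -1.87, Tuba4a at -1.41 and Hsp90b1 at -1.43 among them). The rest were smaller with the score, such as Gap43 at -0.26 and Nfil3 at -0.03. Over the 82 genes the median ratio of the difference with the score to that without it was 0.78. Fitting only the P7 arrays ended the calls of 11 named genes, Or10d5j (adjusted p = 0.0769), Cct5 (0.0877), Cox5a (0.0654), Ndufa5 (0.0572), Sst (0.132), Mchr1 (0.12), Hdac2 (0.0814), Ttr (0.0763), Mbp (0.0966), C1qc (0.0904) and Ctss (0.0586). Averaging stems ended 14, Pax5, Cacng2 and Nfil3 among them. Leaving out 1 array ended calls in 12, each given with its values above. Against the later ages, blocks of array numbers moved the median of all rows to -0.13. There are no detection flags, so dim rows limit what can be said of sizes.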
